A study of Mus musculus with 8 samples.

Results

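Gene expression in mouse dorsal root ganglia 1 day after carrageenan injection (1d) was compared with expression before injection (0d), to see which gene classes beside the interferon response differed and which did not. The comparison uses 4 of the 8 RNA-seq libraries of the time course, 2 at 0d and 2 at 1d, and covers the 14948 of 24421 genes in the table that reached a CPM (counts scaled to library size) of 1 in 2 or more of the 8 libraries. All libraries were labelled WT and C57BL/6J. The series description gives an age of 8 weeks, and the methods give males over a wider range of adult ages. The 1d mice had received 20 µL of 1% carrageenan, a seaweed polysaccharide that inflames the tissue it is put into, in the left hind paw. The 0d mice were naïve and untreated, so the injection itself, with needle and vehicle, cannot be told apart from the carrageenan. Each library held RNA of the L3 to L5 ganglia pooled from 2 to 3 mice, and the replicates are therefore pools and not single animals. The methods do not state the side of these ganglia, so it is not known whether ganglia of the uninjected side were included. The labels name DRG neurons, but by the methods whole dissected ganglia were used, which also hold glia, vessels, connective tissue and immune cells.

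The dorsal root ganglia hold the cell bodies of the sensory neurons that carry touch, temperature and pain signals from the skin to the spinal cord. Each cell body is wrapped in satellite glia, its axon is ensheathed by Schwann cells, and resident macrophages lie between them. Signals from an inflamed paw can reach the ganglion through the blood and along the axon. Type I interferons act through a receptor pair and transcription factors, STAT2 and IRF9 among them, that bind an interferon-stimulated response element (ISRE) before their target genes. Genes of antigen presentation, cytokines, prostaglandin receptors and ion channels are other classes known to take part when a paw is inflamed, and a list was made for each of them.

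The libraries held 44123208 to 61297996 counts at 0d and 1d, and their scaling factors lay between 0.994 and 1.01 over all 8 libraries. Log2 CPM values of the replicates had a correlation across genes of 0.993 at 0d and 0.994 at 1d. Markers of sensory neurons were abundant in every library, with Tubb3 (neuronal tubulin) between 2763 and 2989 CPM and Prph (peripherin) between 1776 and 1912 CPM. Replicate 1 of 0d stood apart from the other 3 libraries in several gene lists. Its mean level of skeletal muscle, matrix and myelin genes was the highest of the 4 libraries, and its mean level of neutrophil and red blood cell genes was the lowest. The values of these lists without it are given beside them.

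Few genes were called at 1d. Of the 14948 genes, 61 (0.408%) passed an adjusted p of 0.05 in edgeR's quasi-likelihood test. Of these, 58 (0.388%) were higher and 3 (0.0201%) were lower at 1d. At an unadjusted p under 0.05 there were 711 genes (4.76%), 394 of them higher and 317 lower. The interferon lists held 51 of the 61 called genes, all of them higher. The remaining 10 genes, 7 higher and 3 lower, lay outside these lists, and 9 of them belong to some other list. Outside refers to the lists only, since genes that interferons induce, such as the chemokine gene Cxcl10, are also in other lists. Whether any of the 10 was part of the interferon response was not tested. Genes in no list numbered 13951, of which 1 was called and 553 (3.96%) had a p under 0.05. The median log2 fold change over all tested genes was 0.00 and its median size was 0.06, while the median size among the called genes was 0.97. The 95% interval of a gene reached 0.21 either side of its log2 fold change at the median, and for 74.2% of the genes it lay wholly between −0.5 and 0.5. For the other genes the interval reached past these bounds.

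**Figure D1:**
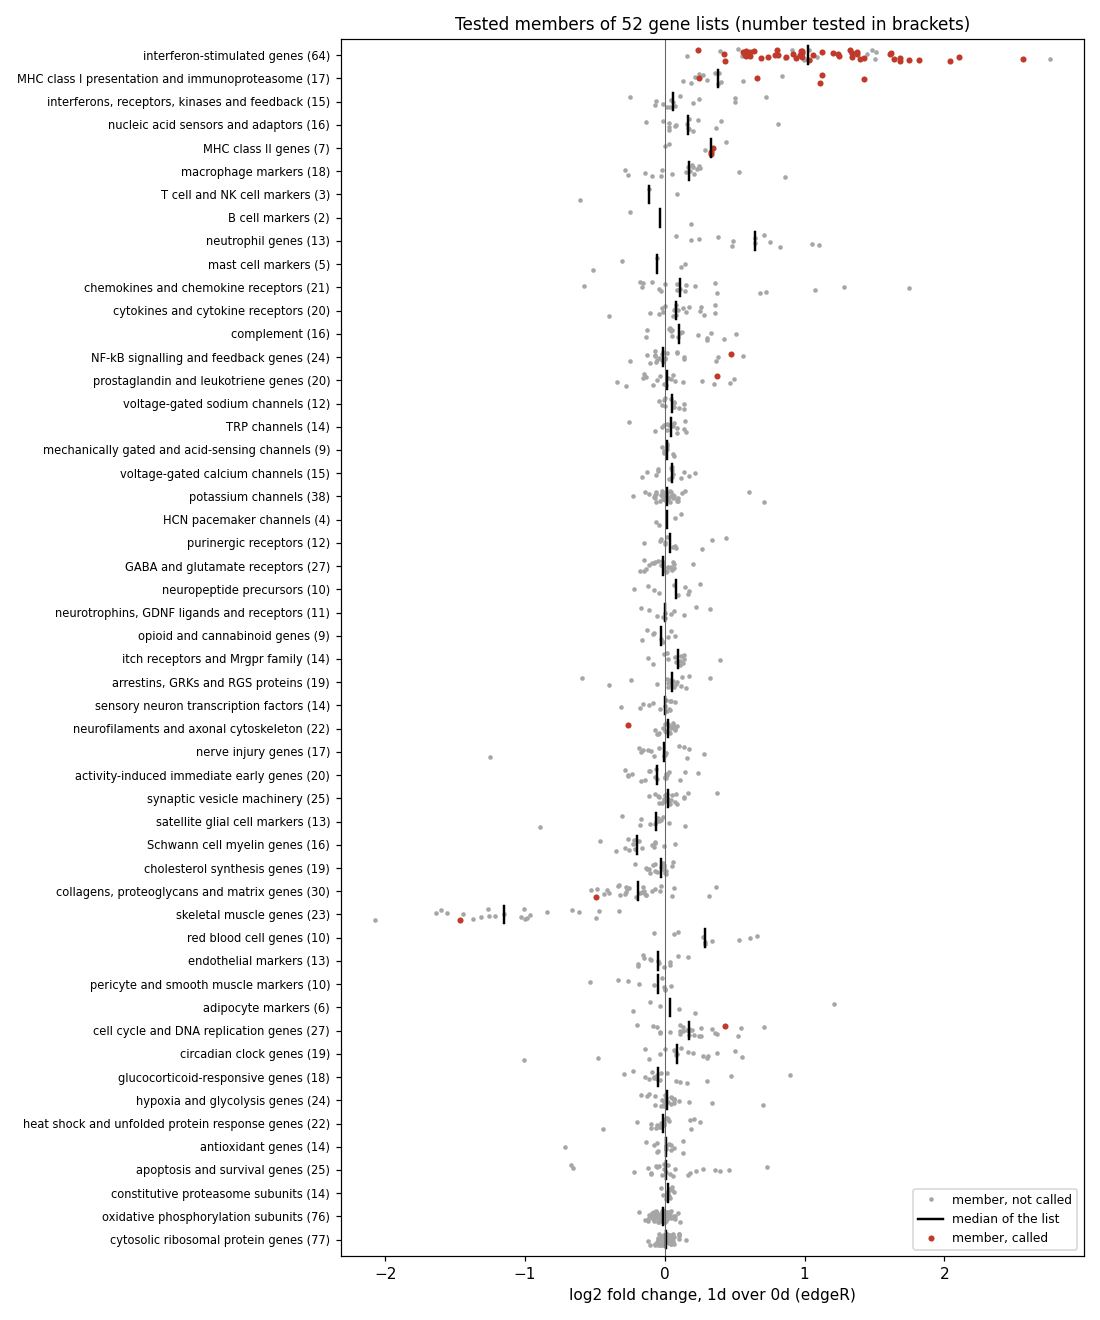
Log2 fold change of 1d over 0d (horizontal axis) for every tested gene of 52 lists (vertical axis, number tested in brackets). Grey points are members that were not called, red points are called members and black bars are list medians. The interferon-stimulated genes lie to the right with a median of 1.02, the skeletal muscle genes lie to the left with a median of −1.15, and channel, peptide and housekeeping lists sit near 0.

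Of the 112 tested genes in the 4 interferon lists, 51 rose and none fell. Among 64 interferon-stimulated genes 46 rose, the median log2 fold change was 1.02, and all 64 were higher in both 1d libraries than in both 0d libraries, against 16.1% of all genes. All 52 lists were written with earlier results of these data known, so such shares describe the lists and are no independent test. When 1 library was left out the called members numbered 26 and 33 without replicates 1 and 2 of 0d, and 19 and 36 without replicates 1 and 2 of 1d. Isg15, a ubiquitin-like modifier, was at 4.14 and 4.10 CPM at 0d and at 17.8 and 16.2 CPM at 1d. Its log2 fold change was 2.04 (SE 0.14, edgeR adjusted p = 7.54e-06), and both 1d libraries lay far above both 0d libraries. Ifit1, which binds foreign RNA, stood at 22.8 and 22.4 CPM before injection and at 82.5 and 62.6 CPM on day 1, a log2 fold change of 1.69 (SE 0.11). Oasl2, an oligoadenylate synthetase-like protein, had a log2 fold change of 1.03 (SE 0.07). Stat2, a subunit of the interferon-activated transcription factor, went from 77.5 and 72.8 CPM to 127 and 115 CPM, a log2 fold change of 0.69 (SE 0.06). The 8 interferon genes with the smallest p, Oasl2, Isg15, Ifit3, Ifit1, Ifit3b, Rtp4, Stat2 and Tap1, kept their call in all 13 alternative settings. By runs of 50 bases, 51.2% of Ifit3 also occurs in Ifit3b, 45.0% of Ifit3b in Ifit3, and 13.6% of Rtp4 in a predicted gene, so the counts of these 3 genes are uncertain.

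The MHC class I and immunoproteasome list, which holds the genes that cut, load and display peptides, had 5 of 17 members called, all higher, and a median of 0.38. The count was 10 with DESeq2, 8 with no filter on low counts, 3 without either replicate of 0d, and 2 and 6 without replicates 1 and 2 of 1d. Tap1, a subunit of the peptide transporter, was at 10.3 and 10.7 CPM at 0d and at 31.8 and 24.7 CPM at 1d (log2 fold change 1.43, SE 0.13). Tap2, its partner, had a log2 fold change of 0.66, the immunoproteasome subunit Psmb9 of 1.12 and the peptide editor Tapbp of 0.25, each called. Psmb9 lost its call in all 4 fits that left out a library, and Tapbp in these and in 3 other alternatives. The classical heavy chains H2-K1 and H2-D1 were not called by edgeR, with log2 fold changes of 0.38 (95% interval 0.08 to 0.68) and 0.19 (−0.07 to 0.45). H2-K1 was called by DESeq2 and in the fit without replicate 2 of 1d. Constitutive subunits of the proteasome core had 0 of 14 members called by edgeR or DESeq2, with 0 at an unadjusted p under 0.05 and a median of 0.02.

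Genes upstream of the response showed smaller differences. Of 15 tested genes for interferon receptors, kinases, transcription factors and feedback inhibitors, edgeR called 0, DESeq2 called 1, and 5 had a p under 0.05. The receptor chains Ifnar1 and Ifnar2 had log2 fold changes of 0.04 (95% interval −0.10 to 0.17) and 0.01 (−0.18 to 0.20). Irf1, a transcription factor that interferons induce, was at 17.8 and 17.7 CPM before and at 26.5 and 23.7 CPM after injection, with an adjusted p of 0.0619 in edgeR. It was the member that DESeq2 called, and edgeR called it with no filter on low counts and with the replicate number as a block. Of the 16 tested sensors of foreign nucleic acids and their adaptors, edgeR and DESeq2 called 0 and 2 had a p under 0.05. Sensors that interferons also induce were placed in the interferon-stimulated list instead, where Ddx58 (RIG-I), Ifih1 (MDA5) and Zbp1 rose. Ddx58 and Ifih1 had log2 fold changes of 0.74 and 0.86, and Zbp1 went from 1.23 and 1.24 CPM to 5.94 and 4.67 CPM. Ifih1 lost its call in 3 of the 4 fits that left out a library and Zbp1 in 1, the fit without replicate 1 of 1d. Tmem173, which encodes the adaptor STING, had the smallest p among the 16, with a log2 fold change of 0.81 (95% interval 0.33 to 1.29, adjusted p = 0.329). The 3 interferon genes looked for were not seen. Ifnb1, Ifna4 and Ifng had 0 counts in each of the 4 libraries, which allows at most 0.0680 CPM in the shallowest of them, counting error only.

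The letters GAAANNGAAA, the core of the ISRE, were looked for on both strands from 250 bases before to 50 bases after each gene's start in the RefSeq promoters of GRCm38.p6. Promoters were found for 11196 of the 14948 tested genes, and 397 of these (3.55%) held the letters. Among the called interferon genes 20 of 38 with a promoter held them (52.6%). None of the 6 called genes outside the interferon lists that had a promoter held them. The upstream stretches of 3 interferon genes follow with the motif in capitals, to show where the letters lie. On the strand printed the motif can appear as its reverse complement.
Isg15, chr4:156200830-156200941, minus strand: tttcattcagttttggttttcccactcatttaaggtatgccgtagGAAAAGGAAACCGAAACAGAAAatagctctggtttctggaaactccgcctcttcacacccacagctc
Ifit1, chr19:34640740-34640858, plus strand: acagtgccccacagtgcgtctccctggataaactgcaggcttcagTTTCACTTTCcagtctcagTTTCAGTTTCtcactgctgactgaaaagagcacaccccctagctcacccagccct
Stat2, chr10:128270248-128270330, plus strand: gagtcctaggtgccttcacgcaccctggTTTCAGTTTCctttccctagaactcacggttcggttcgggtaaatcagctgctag
Isg15 carries 3 overlapping matches, Ifit1 carries 2 separate ones and Stat2 carries 1. A match is a description of the letters and no measurement of binding.

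MHC class II genes had 3 of 7 tested members called, all higher, with a median of 0.33. Of the 7, 4 were called by DESeq2 and with no filter on low counts, but 1 by limma-voom and by edgeR on the 4 libraries of 0d and 1d alone, and 1 or fewer in each fit that left out a library. The median was 0.21 without replicate 1 of 1d and up to 0.36 in the other 3 fits that left out a library. These genes show peptides to helper T cells and are made by macrophages, dendritic cells and B cells. Cd74, the invariant chain that guards the class II groove, was at 131 and 123 CPM at 0d and at 164 and 155 CPM at 1d. Both 1d libraries lay above both 0d libraries, and the log2 fold change was 0.33 (SE 0.05, edgeR adjusted p = 0.00630). H2-Eb1, a beta chain (chromosome 17 of mm10, 34305867 to 34316674), was at 42.7 and 42.9 CPM before and at 54.9 and 53.6 CPM after injection, a log2 fold change of 0.34 (SE 0.06, adjusted p = 0.0203). H2-Aa, an alpha chain on the same chromosome (34282751 to 34287771), went from 45.5 and 41.2 CPM to 55.8 and 53.0 CPM, a log2 fold change of 0.33 (SE 0.07, adjusted p = 0.0482). In each of the 3 genes the libraries of the groups did not overlap. H2-Ab1, the beta chain that pairs with H2-Aa, had a log2 fold change of 0.29 and an adjusted p of 0.144, and was called by DESeq2, which called 0.749% of all genes, and with no filter on low counts. The peptide editors H2-DMa and H2-DMb1 had values of 0.00 (95% interval −0.24 to 0.24) and 0.03 (−0.30 to 0.36). Ciita, the master activator of class II genes, was at 3.31 and 2.80 CPM at 0d and at 4.77 and 3.48 CPM at 1d, and was not called (log2 fold change 0.44, 95% interval −0.04 to 0.91). H2-DMb2, H2-Oa and H2-Ob were too low to test.

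Class II promoters are known for a Y box, TGATTGG in its core, bound by the factor NF-Y. H2-Eb1 and H2-Aa both carried these letters within 120 bases of the RefSeq start, shown in capitals, as did 11.3% of all tested genes with a promoter, over the whole window.
H2-Eb1, chr17:34305747-34305866, plus strand: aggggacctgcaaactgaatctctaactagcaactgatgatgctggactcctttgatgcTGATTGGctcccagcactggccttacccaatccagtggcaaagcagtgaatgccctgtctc
H2-Aa, chr17:34287824-34287943, minus strand: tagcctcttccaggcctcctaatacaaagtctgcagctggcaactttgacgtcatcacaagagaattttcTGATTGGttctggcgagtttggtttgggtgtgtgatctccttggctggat
Of the called interferon genes with a promoter, 4 of 38 (10.5%) held the Y box core, Tap1 and Psmb9 among them.

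Markers of the cells that make class II molecules were described beside it. Of 18 macrophage markers edgeR and DESeq2 called 0 and 1 had a p under 0.05, with a median of 0.17. The median was 0.03 without replicate 1 of 1d, 0.11 without replicate 2 of either group and 0.18 without replicate 1 of 0d. Of the 18, 12 had a log2 fold change above 0. Laptm5, a lysosomal membrane protein of blood cells, had the smallest p, with a log2 fold change of 0.25 (95% interval 0.03 to 0.47). Aif1, which encodes the macrophage protein IBA1, was at 1.06 and 0.928 CPM at 0d and at 1.65 and 1.96 CPM at 1d, a log2 fold change of 0.86 (−0.09 to 1.81). Csf1r, the receptor for the macrophage growth factor, had a log2 fold change of −0.03 (95% interval −0.24 to 0.18), and Cx3cr1 had −0.27 (−0.57 to 0.04). The mean log2 CPM of the macrophage list was 2.69 and 2.59 at 0d and 2.80 and 2.74 at 1d, so the groups did not overlap but lay close together. T and NK cell markers were near the floor, with 3 of 15 tested, and Cd3e, Cd3d and Cd3g under 0.5 CPM in all 4 libraries. B cell markers had 2 of 7 tested, with log2 fold changes of 0.19 for Cd79a (95% interval −0.62 to 0.99) and −0.25 for Cd79b (−1.38 to 0.88). In whole ganglia, more cells of a type and more RNA per cell cannot be told apart, and the part of these cells in the class II difference was not tested.

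**Figure D2:**
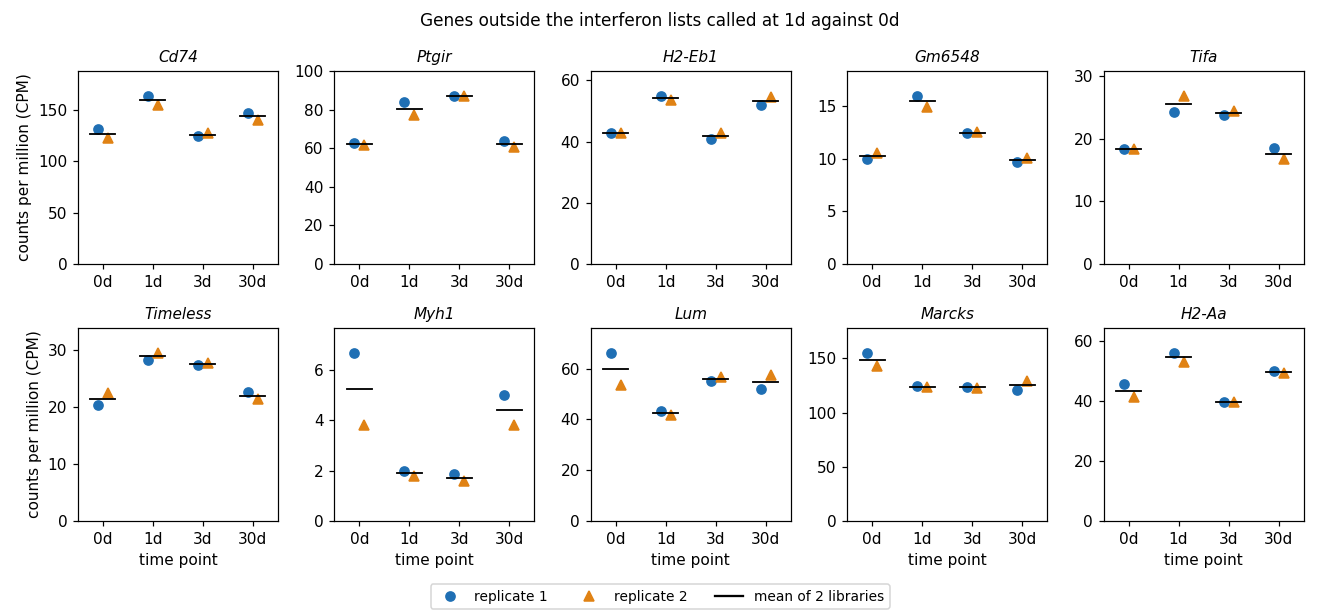
CPM (vertical axis, from 0) at each time point (horizontal axis) of the 10 genes outside the interferon lists that were called at 1d against 0d. Circles are replicate 1, triangles are replicate 2 and bars are the mean of 2 libraries. In all 10 panels both 1d libraries lie on the same side of both 0d libraries.

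Among 20 genes for making and sensing prostaglandins and leukotrienes, 1 rose. Ptgir, the receptor for prostacyclin, which sensitises pain neurons and relaxes vessels (chromosome 7, 16906490 to 16910905), was at 62.9 and 61.7 CPM at 0d and at 84.1 and 77.1 CPM at 1d. Its log2 fold change was 0.37 (SE 0.06, edgeR adjusted p = 0.00637), and the groups were well separated. It stood at 87.1 CPM in both 3d libraries and at 63.6 and 60.7 CPM at 30d. The synthesis genes gave smaller or less certain values. Ptgs1, the constitutive cyclooxygenase, had a log2 fold change of −0.28 (95% interval −1.01 to 0.46) and the prostaglandin E synthase Ptges one of −0.08 (−0.36 to 0.19). The inducible cyclooxygenase Ptgs2 had 15 and 9 counts at 0d and 8 and 10 counts at 1d and was too low to test. Alox5ap, which hands arachidonic acid to the leukotriene enzyme, was at 3.72 and 3.68 CPM before and at 5.20 and 5.24 CPM after injection, with a log2 fold change of 0.50 (95% interval 0.07 to 0.92) that was not called.

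Tifa was called among 24 genes of NF-kB signalling and its feedback. It is an adaptor that links receptors to TRAF6 and NF-kB, and lies on chromosome 3 (127789913 to 127798389). Its level was 18.4 CPM in both 0d libraries and 24.3 and 26.8 CPM at 1d (log2 fold change 0.48, SE 0.09, edgeR adjusted p = 0.0347). The list as a whole had a median of −0.02. The subunits Nfkb1 and Nfkb2 had log2 fold changes of −0.11 (95% interval −0.27 to 0.06) and −0.07 (−0.42 to 0.29). The adhesion molecule Vcam1 had a larger value of 0.56 (0.05 to 1.07) and was not called.

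Of 28 cytokines and receptors 20 were tested, and of 32 chemokines and receptors 21 were tested. EdgeR called 0 in either list, with 1 and 5 at a p under 0.05, and DESeq2 called Cxcl10 alone. With the replicate number as a block edgeR also called Cxcl10. Cxcl10, a chemokine that interferons induce, was at 3.78 and 2.31 CPM at 0d and at 9.66 and 5.10 CPM at 1d (log2 fold change 1.28, 95% interval 0.33 to 2.24, edgeR adjusted p = 0.755). Cxcl9, its neighbour, was at 1.08 and 0.733 CPM before and at 4.79 and 1.25 CPM after, so most of the difference came from 1 library. The monocyte chemokines Ccl2, Ccl6 and Ccl12 had log2 fold changes of 0.68, 0.72 and 1.07, none called. Il1b had 9 and 41 counts at 0d and 18 and 11 counts at 1d. Il6 had 5 and 6 counts before and 7 and 0 after, and Tnf had 3 and 5 before and 8 and 3 after. These 3 inflammatory cytokines stayed under 1 CPM in all 4 libraries.

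Complement genes had 0 of 16 called by edgeR, 4 with a p under 0.05, 1 called by DESeq2, and a median of 0.10. Without replicate 1 of 0d the median was 0.24 and without replicate 2 of 1d 0.21, against 0.07 and 0.08 without the other libraries. The 3 chains of C1q, which starts the classical pathway, were each higher in both 1d libraries. C1qa was at 19.9 and 18.4 CPM at 0d and at 24.1 and 23.1 CPM at 1d, a log2 fold change of 0.30 (95% interval 0.12 to 0.49, adjusted p = 0.386). C1qb and C1qc had values of 0.42 and 0.30, with adjusted p of 0.317 and 0.523. C4b, which C1 cleaves, was at 51.8 and 51.9 CPM at 0d but at 84.6 and 63.0 CPM at 1d. It was called by DESeq2, with the replicate block and without replicate 2 of 1d.

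The differences of blood cell genes depended in part on the library that stood apart. All 13 neutrophil genes had a log2 fold change above 0, with a median of 0.65, and edgeR and DESeq2 called 0 of them, with 1 at a p under 0.05. The list mean was 1.64 and 2.64 log2 CPM at 0d and 2.72 and 2.90 at 1d, so replicate 2 of 0d was close to the 1d libraries. Without replicate 1 of 0d the median of the list was 0.15, and without replicate 2 it was 1.28. S100a8, a calcium-binding protein abundant in neutrophils, was at 6.46 and 12.7 CPM at 0d and at 16.0 and 18.1 CPM at 1d. It was at 20.8 and 21.0 CPM at 3d and at 31.9 and 15.3 CPM at 30d. S100a9 was at 13.2 and 32.5 CPM at 0d and at 31.8 and 32.4 CPM at 1d, so its groups overlapped. Elane, the elastase of early neutrophil stages, was at 1.27 and 2.00 CPM before and at 3.81 and 3.01 CPM after, with the smallest p of the list (log2 fold change 1.05, 95% interval 0.40 to 1.71, edgeR adjusted p = 0.398). Elane was at 2.63 and 2.67 CPM at 3d and at 4.23 and 2.50 CPM at 30d. Red blood cell genes also had their lowest mean in replicate 1 of 0d, with means of 3.79 and 4.55 log2 CPM at 0d and 4.59 and 4.48 at 1d. Their median was 0.29, but −0.01 without replicate 1 of 0d and 0.90 without replicate 2.

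**Figure D3:**
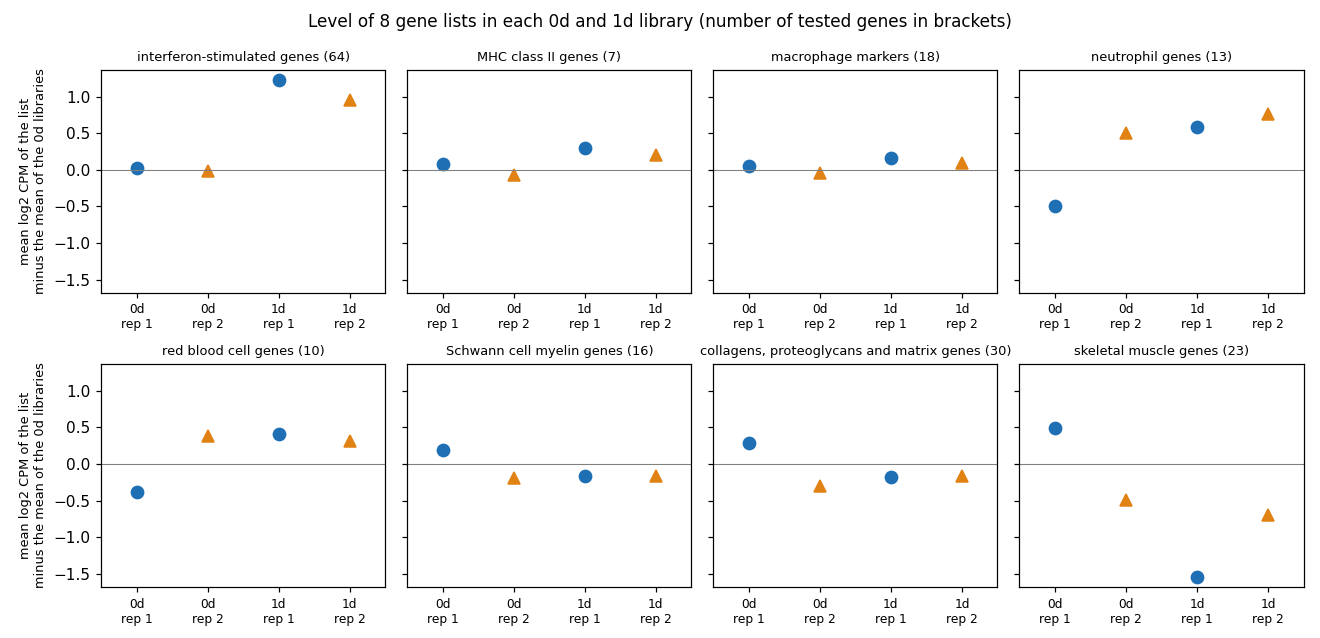
Mean log2 CPM of 8 gene lists in each of the 4 libraries (horizontal axis), less the mean of the 0d libraries (vertical axis). Circles are replicate 1 and triangles replicate 2. Interferon-stimulated genes stand near 0 in both 0d libraries and about 1 higher in both 1d libraries, whereas in the neutrophil, red blood cell, myelin and matrix panels replicate 1 of 0d lies away from the other 3 libraries.

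Among skeletal muscle genes Myh1 fell. Of 23 tested genes none had a log2 fold change above 0, the median was −1.15, and 15 were lower in both 1d libraries than in both 0d libraries, against 15.9% of all genes. Myh1, a fast myosin heavy chain (chromosome 11, 67200114 to 67224575), was at 6.67 and 3.83 CPM at 0d and at 1.99 and 1.80 CPM at 1d. Its log2 fold change was −1.46 (SE 0.28, edgeR adjusted p = 0.0361), and its counts are uncertain because 26.7% of its 50-base runs also occur in Myh2. Acta1, the actin of skeletal muscle, was at 41.7 and 23.1 CPM before and at 7.47 and 17.6 CPM after, with a 95% interval of −4.02 to 1.28. Ckm, the muscle creatine kinase, had a log2 fold change of −1.03 with a 95% interval of −3.51 to 1.46. The list mean was 2.99 and 2.02 log2 CPM at 0d and 0.96 and 1.82 at 1d, so the groups did not overlap, but libraries of 1 group lay nearly as far apart as the group means. Without replicate 1 of 0d the median was −0.59 and Myh1 was not called. Without replicate 2 of 0d it was −1.48 with 3 genes called lower, and it was −0.86 and −1.75 without replicates 1 and 2 of 1d. Dorsal root ganglia hold no skeletal muscle, and the part of muscle tissue in these values was not tested.

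Among matrix genes of fibroblasts Lum fell. Lum encodes lumican, a proteoglycan that spaces collagen fibrils (chromosome 10, 97565501 to 97572703). It was at 66.1 and 53.5 CPM at 0d and at 43.2 and 41.8 CPM at 1d, a log2 fold change of −0.49 (SE 0.09, edgeR adjusted p = 0.0396). Of 30 collagens, proteoglycans and other matrix genes 4 had a log2 fold change above 0, and the median was −0.19. Dcn, the related proteoglycan decorin, was at 566 and 472 CPM before and at 438 and 463 CPM after (−0.21, 95% interval −0.44 to 0.03). Col1a1, the main collagen of connective tissue, was at 404 CPM in replicate 1 of 0d and between 227 and 260 CPM in the other 3 libraries. The list mean was 6.13 and 5.54 log2 CPM at 0d and 5.67 and 5.68 at 1d, so the groups overlapped. Without replicate 1 of 0d the median turned to 0.09 and Lum had −0.33. Among the alternatives that left out no 0d or 1d replicate, Lum lost its call in 5, the replicate block and limma-voom among them. Without replicate 2 the median was −0.47 and 11 of the 30 genes were called lower.

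Myelin genes of Schwann cells followed replicate 1 of 0d in the same way. None of 16 was called by edgeR or DESeq2, 0 had a p under 0.05, and the median was −0.20. Mbp, the myelin basic protein, was at 2312 CPM in replicate 1 of 0d and between 1675 and 1759 CPM in the other 3 libraries. Without replicate 1 of 0d the median of the list was 0.02, and without replicate 2 it was −0.36 with 2 of the 16 genes called lower. Satellite glia markers had a median of −0.06, with 0 of 13 called by edgeR or DESeq2 and 2 at a p under 0.05. Gja1, the gap junction protein connexin 43, was at 35.2 CPM in both 0d libraries and at 28.1 and 28.9 CPM at 1d (log2 fold change −0.31, 95% interval −0.46 to −0.16, adjusted p = 0.111). Fabp7, a lipid-binding protein of satellite glia, was at 148 and 176 CPM at 0d and at 91.3 and 83.1 CPM at 1d, with a 95% interval of −1.97 to 0.19. It was called when the 0d and 1d libraries were fitted alone. Endothelial and pericyte markers had medians of −0.05 each and no called member by edgeR or DESeq2, with 0 of 13 and 0 of 10 at a p under 0.05. Without replicate 2 of 0d these medians were −0.11 and −0.20, and without replicate 1 of 0d −0.03 and 0.05.

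No ion channel gene of the sensory neurons was called. In 6 lists of sodium, TRP, mechanically gated and acid-sensing, calcium, potassium and HCN channels, 92 genes were tested, edgeR and DESeq2 called 0, and 5 (5.43%) had a p under 0.05, all higher. The 95% interval lay between −0.5 and 0.5 for 85 of the 92 (92.4%), and its median reach was 0.14 either side. Scn10a, the sodium channel NaV1.8 of pain neurons, was at 1020 and 1080 CPM at 0d and at 1179 and 1136 CPM at 1d. Its log2 fold change of 0.14 (95% interval 0.05 to 0.23, adjusted p = 0.458) was the smallest p among the sodium channels and did not pass. Scn9a, the channel NaV1.7, had 0.07 (−0.03 to 0.17). Trpv1, which opens to heat and capsaicin, had 0.09 (−0.02 to 0.20), and Trpa1, which opens to irritants, had 0.15 (0.04 to 0.27). Piezo2, the touch channel, had 0.06 (−0.07 to 0.19). Cacna2d1, the calcium channel subunit that gabapentin binds, was at 222 and 230 CPM before and at 248 and 249 CPM after, with a log2 fold change of 0.14 (0.05 to 0.22, adjusted p = 0.353).

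**Figure D4:**
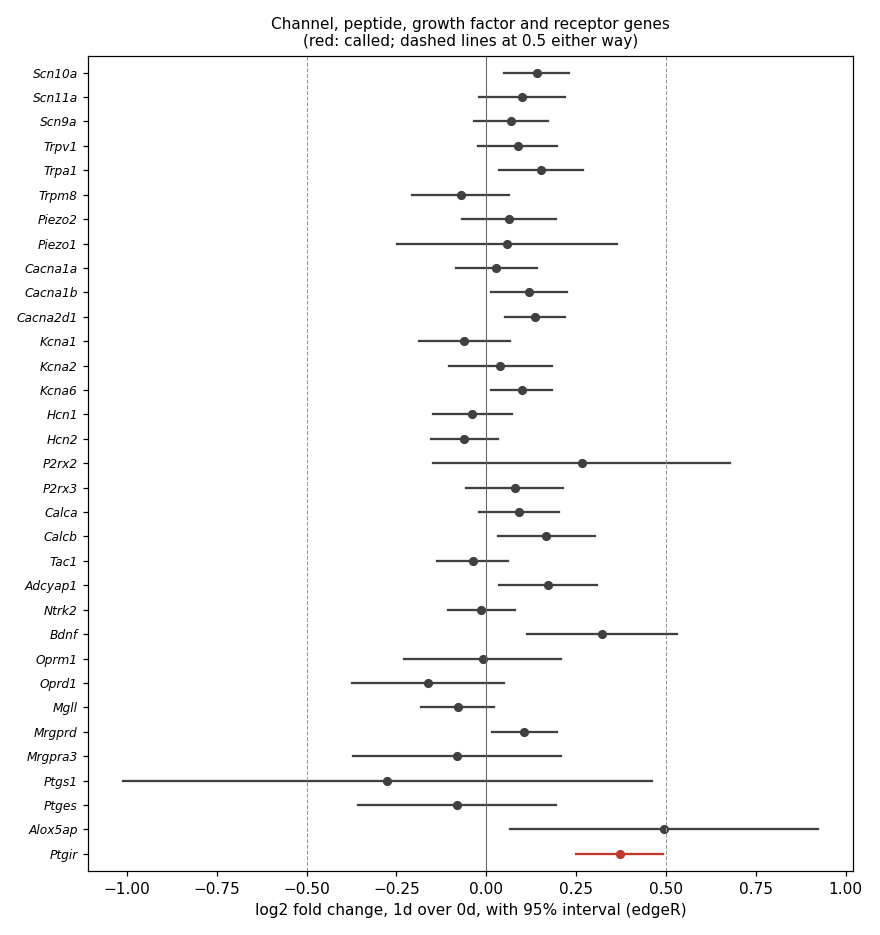
Log2 fold change of 1d over 0d with its 95% interval (horizontal axis) for channel, peptide, growth factor and receptor genes (vertical axis). Red marks the called gene, grey marks the others and dashed lines stand at 0.5 either side of 0. Ptgir is the 1 called gene, and the intervals of Bdnf, P2rx2, Ptgs1 and Alox5ap reach past the dashed lines.

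No peptide, growth factor, purinergic or opioid gene of these neurons was called by edgeR or DESeq2, with 0 to 2 of each list at a p under 0.05. Calca, which encodes the pain peptide CGRP, was at 798 and 891 CPM at 0d and at 868 and 932 CPM at 1d, a log2 fold change of 0.09 (95% interval −0.02 to 0.20). Tac1, the substance P precursor, had −0.04 (−0.14 to 0.06). Bdnf, a growth factor made by pain neurons in inflammation, was at 32.8 and 35.5 CPM before and at 42.5 and 42.9 CPM after, with libraries that did not overlap. Its log2 fold change was 0.32 (95% interval 0.11 to 0.53) and its adjusted p was 0.485. The µ opioid receptor Oprm1 had −0.01 (−0.23 to 0.21). The P2X3 receptor gene P2rx3 had 0.08 (−0.06 to 0.21).

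No nerve injury or immediate early gene was called. Of 17 nerve injury genes edgeR and DESeq2 called 0 and 3 had a p under 0.05, and Atf3, the factor that marks axotomised neurons, was at 5.92 and 9.79 CPM at 0d and at 9.47 and 8.13 CPM at 1d. The 20 activity-induced immediate early genes had a median of −0.06, 0 called by either tool and 1 at a p under 0.05. Fos had a log2 fold change of −0.17 (95% interval −0.59 to 0.25). Sensory neuron transcription factors had a median of 0.00, with Pou4f1 at 0.01 (−0.08 to 0.10), 0 of 14 called by edgeR, 2 at a p under 0.05 and 1, Shox2, called by DESeq2.

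Marcks fell among 22 genes of neurofilaments and the axonal cytoskeleton, a list with a median of 0.02. It encodes an actin-binding substrate of protein kinase C (chromosome 10, 37133243 to 37138926). Its level was 155 and 143 CPM at 0d and 124 CPM in both 1d libraries, a log2 fold change of −0.26 (SE 0.05, edgeR adjusted p = 0.0409). It stayed between 121 and 129 CPM in the 3d and 30d libraries. The neurofilament genes Nefl and Nefm had values of −0.05 (95% interval −0.13 to 0.02) and −0.05 (−0.14 to 0.04).

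Timeless rose among 27 genes of the cell cycle and DNA replication. It encodes a protein that protects replication forks (chromosome 10, 128232063 to 128252941). It was at 20.3 and 22.4 CPM at 0d and at 28.3 and 29.5 CPM at 1d, a log2 fold change of 0.43 (SE 0.08, edgeR adjusted p = 0.0347). The median of the list was 0.17, but 0.06 without replicate 1 of 0d, 0.11 without replicate 1 of 1d and 0.29 without replicate 2 of 0d. Mki67 and Top2a, which mark dividing cells, had log2 fold changes of 0.24 (95% interval −0.99 to 1.48) and 0.53 (−0.94 to 2.00). Gm6548, the called gene in no list (chromosome 17, 78850505 to 78852544), was at 9.98 and 10.6 CPM before and at 15.9 and 14.9 CPM after (log2 fold change 0.59, SE 0.11, adjusted p = 0.0331). Its counts are uncertain, since 24.1% of its 50-base runs also occur in Eef1a1, a translation factor. It also lies next to Eif2ak2, a called interferon gene on the same chromosome (78852550 to 78882572) with a log2 fold change of 0.58, and strand was not used in counting. The part of either gene in its counts was not tested.

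Among genes of stress responses, Mt2, a metallothionein that binds zinc, was at 17.0 and 16.8 CPM at 0d and at 34.4 and 28.4 CPM at 1d. Its log2 fold change of 0.90 (95% interval 0.39 to 1.40) had an edgeR adjusted p of 0.443. Mt1, its neighbour, had 0.48. Both were called by DESeq2, and by edgeR when the 0d and 1d libraries were fitted alone. The other glucocorticoid-responsive genes lay lower, so that the list of 18 had a median of −0.05, with Fkbp5 at 0.16 (−0.11 to 0.43). Among 19 clock genes edgeR and DESeq2 called 0 and 3 had a p under 0.05. Their median was 0.09, but 0.24 without replicate 1 of 0d and −0.01 without replicate 2. Arntl, which encodes the core activator BMAL1, was at 5.27 and 6.22 CPM before and at 2.82 and 2.89 CPM after (log2 fold change −1.01, 95% interval −1.73 to −0.29, adjusted p = 0.666), and its partner Npas2 had −0.48. Cry1, a repressor of the clock, had 0.28 (0.05 to 0.50).

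Hypoxia and glycolysis, heat shock and unfolded protein response, antioxidant, and apoptosis lists had medians of 0.02, −0.01, 0.01 and 0.01. EdgeR and DESeq2 called 0 of their 24, 22, 14 and 25 genes, with 2, 1, 1 and 6 at a p under 0.05. The 6 apoptosis genes were 24.0% of their list, against 4.76% of all genes, and 4 of them were higher and 2 lower. Log2 fold changes in that list ran from −0.67 for Egfr to 0.73 for Tnfsf10, which had its smallest p. Hif1a had a log2 fold change of −0.01 (95% interval −0.11 to 0.10). All 77 genes of the cytosolic ribosome and all 76 subunits of oxidative phosphorylation had 95% intervals between −0.5 and 0.5, with medians of 0.01 and −0.01, 0 called by edgeR or DESeq2 and 1 each at a p under 0.05.

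Across the 48 lists other than the interferon lists, 41 held no gene called by edgeR and 37 had a median within 0.1 of 0. Of these 37, 23 kept it there in all 4 fits that left out a library, and 5 (B cell, mast cell, pericyte, adipocyte and clock genes) went past 0.2 in some of them. In the chemokine, complement, sensory neuron transcription factor, cholesterol synthesis and glucocorticoid-responsive lists, all among the 41, DESeq2 called 1 or 2 members each. The 10 calls outside the interferon lists differed in how far they depended on 1 library. Cd74 and Ptgir lost their call in 1 of 13 alternatives, the fit without replicate 1 of 1d (adjusted p = 0.147 for each), with log2 fold changes between 0.28 and 0.38 and between 0.31 and 0.43 over the 4 fits that left out a library. The other 8 genes lost it in 6 to 9 of 13. Without replicate 1 of 0d 2 of the 10 stayed called, without replicate 2 of 0d 6, without replicate 1 of 1d 0 and without replicate 2 of 1d 2. Over these 4 fits Lum ranged from −0.64 to −0.33, Myh1 from −1.81 to −1.01, Marcks from −0.32 to −0.20, H2-Eb1 from 0.33 to 0.36, H2-Aa from 0.26 to 0.40, Tifa from 0.40 to 0.55, Timeless from 0.36 to 0.51 and Gm6548 from 0.54 to 0.63. None of the 10 changed sign in any alternative.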

How the data were processed

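Per the labels, the methods and the file headers, the authors trimmed reads (cutadapt 2.10), aligned them to mm10 (STAR 2.7.5a) and counted read pairs on exons of UCSC genes (featureCounts 2.0.1). A pair overlapping several genes was counted for each, pairs mapping to several places were not counted, and strand was not used. The deposited values are whole-number counts per gene without normalization. Each column matched 1 sample by its name, and groups and replicate numbers came from the titles.

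All 8 libraries entered 1 edgeR 4.0.16 model in R 4.3.3 with a term for time point. Genes with a CPM of at least 1 in 2 of the 8 libraries were kept, and those left out held at most 0.109% of any library's counts. Library sizes were scaled by TMM, and 1d was tested against 0d by quasi-likelihood with robust dispersion. A gene was called at a Benjamini-Hochberg adjusted p under 0.05 over all tested genes. Standard errors (SE) were derived from the log2 fold change and F, and intervals are 95%. CPM values are scaled by TMM, and list means are of log2 CPM with a prior count of 2. The common biological coefficient of variation was 8.30%, so the spread between pools, and not counting, limited most genes, and p-values measure that spread. Limma 3.58.1, DESeq2 1.42.0 and other filters, scalings and fits served as alternatives, and the fit was tested on simulated data. Shared sequence was sought in GENCODE vM21 transcripts. Promoters are RefSeq's, build GRCm38.p6, whose coordinates equal those of mm10.

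The comparison, the 52 gene lists and the alternatives were chosen with earlier results of these data known. The genes named are the called genes outside the interferon lists, the 8 called interferon genes with the smallest p, and of each list the first 2 tested genes and the one with the smallest p. Another 40 tested genes, those too low to test and the motifs were chosen after values were seen, as was the newer edgeR dispersion method among the alternatives. Results for some genes are not reported here.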

Additional observations from a re-analysis of the deposited data

How the results depend on the processing

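Against the 61 genes called, 95 were called with no filter on low counts (60 of them shared with the 61), 112 with DESeq2 (61 shared), and 24 to 82 when 1 library was left out (21 to 40 shared). The 58 higher genes became 99 with DESeq2 and 21 to 46 without 1 library. The 3 lower genes became 11 with no filter, 13 with DESeq2, 0 with limma-voom (261 lower at an unadjusted p under 0.05), 0 without robust estimation (344 lower at that p), 1 when the 0d and 1d libraries were fitted alone, 1 with the newer dispersion method and 0 to 39 without 1 library. The 10 genes outside the interferon lists became 37 with no filter, 45 with DESeq2, 2 with limma-voom, 4 without robust estimation and 2 to 46 without 1 library, the highest without replicate 2 of 0d. When the 0d and 1d libraries were fitted alone, 62 genes were called, 47 of them shared with the 61. Of these 62, 12 lay outside the interferon lists, and 2 of the 12 were shared with the 10. The causes of these differences were not tested.

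With the replicate number as a block, 73 genes were called, 70 higher and 3 lower, and 18 lay outside the interferon lists, of which 9 were shared with the 10. The numbers were not taken as pairs, since deviations of same-numbered libraries from their group means had a correlation of 0.0867 between 0d and 1d and −0.0234 to 0.0867 over all pairs of time points.

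Among the named genes, 73 values in 15 genes lost their call under an alternative, 31 values in 16 genes gained one, and no call changed sign. Over the alternatives that kept all 8 libraries or all 4 of 0d and 1d, medians stayed at 0.99 to 1.03 for interferon-stimulated genes and 0.32 to 0.33 for MHC class II genes. Without 1 library they ranged from 0.89 to 1.17 and from 0.21 to 0.36. Intervals cover the spread between the 2 pools of a time point, estimated from all 8 libraries together and with information shared across genes. They are unadjusted, while the called gene with the largest p, H2-Aa, had a p of 0.000197, so a gene whose interval left out 0 was in most cases still not called.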
